A study of Mus musculus with 68 samples.

Results

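Of the E16 cells, 10 were intermediate progenitors (IPs) and 17 were apical progenitors (APs), and their transcriptomes were compared across genes. The series holds 68 arrays, each of them 1 single cell of the mouse cerebral wall hybridized to an Affymetrix mouse genome array. All 27 progenitors came from CD1 mice at embryonic day 16 (E16), from small fragments of the ventricular and subventricular zones (VZ/SVZ) of the dorso-lateral cerebral wall, with no treatment, transgene or mutation in either group. The fragments were digested with trypsin, cells were picked by hand with a glass capillary, and the cDNA of each cell was amplified by PCR together with 4 bacterial spike RNAs, of which lys was added at 1000 copies, dap at 100, phe at 20 and thr at 5. The number of animals is not stated, and picked cells had passed an earlier selection on marker expression by PCR.

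The sample labels give only the stage of an E16 cell. Its type was read from the study's clustering tree, which was built on these same arrays with probe sets that had separated APs from IPs at an earlier age, and the remaining E16 cell, 80K, was placed there as a neuron. A difference in a progenitor marker between the groups therefore describes how the groups were made and is not independent evidence of it. Because each array is 1 cell and no embryo is named for any cell, each group counts as 1 sample. No test was run between them, and every value below is a description of these 27 cells, with SDs that are SDs between cells.

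APs, the radial glia of the ventricular zone, contact the ventricle by an apical process, are held together by cadherin junctions and self-renew under Notch signalling. IPs are their daughters: they leave the ventricular surface, divide in the subventricular zone, carry the T-box factor Eomes (Tbr2) and mostly produce neurons. Proneural factors such as Neurog2 switch on Notch ligands in the committed daughter, and those ligands activate Notch in neighbouring cells, where Hes and Hey repressors hold the proneural genes down.

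Signals were quantile normalized over the 68 arrays and are given as log2 values. The phe spike at 20 copies per cell had a median of 9.72 on this scale, and this value is called the 20-copy level. Of 10789 genes that reached it in at least 1 of the 68 cells, 51 (0.473%) had a mean at least 8-fold higher in IPs with the IP mean at or over the 20-copy level, and 83 (0.769%) had a mean at least 8-fold higher in APs on the same terms, together 134 (1.24%). By the share of cells over the 20-copy level, 80 genes (0.741%) stood at least 50 percentage points higher in IPs and 58 (0.538%) in APs. The median difference over all 10789 genes, IP minus AP, was -0.05, and 48.3% of them had the higher mean in IPs. Cells of 1 group varied widely in most genes, with a median SD of 2.85 between IPs and 2.81 between APs. The 8-fold limit is 3 on the scale of these mean log2 signals, with signals under the 20-copy level taken as measured. Each count of genes at least 8-fold apart, here and in the gene lists, also required the higher mean to be at or over that level. Where the lower group's mean lay under that level, the fold printed beside a gene is a lower bound, taken against the lower group's mean after each of its cells under the level was set to it, and no fold is given where both means lay under it. Signals favoured the 3′ ends of the phe and dap spikes, though not of lys, so a low signal is not evidence that a transcript was absent. Levels are compared between groups for a given gene, never between genes.

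The genes with the highest IP over AP difference were led by Hes6, a Hes family member that counters Hes1 and promotes neuronal differentiation. Its log2 signal ran from 10.86 through a median of 11.69 to 12.57 in the 10 IPs, and from 0.00 through 2.59 to 10.82 in the 17 APs. Every IP lay above every AP, which was true of only 2 of the 10789 genes (0.0185%). All 10 IPs and 1 of 17 APs were over the 20-copy level, and the means were 11.84 (SD 0.55) and 3.49 (SD 3.00), at least 4.15-fold apart. The SD of Hes6 between IPs was under the median of 2.85 over all genes. Cbfa2t2 and Sox4, also over the level in all 10 IPs, had SDs of 0.78 and 0.80 there. Lzts1, a microtubule-associated protein linked to the departure of committed cells from the ventricular surface, was the other gene without overlap. Its IP signals ran from 9.35 through 12.03 to 12.73, against 0.70 through 4.56 to 6.90 in APs, and the means were at least 3.77-fold apart.

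Gadd45g, a growth arrest and DNA damage response gene downstream of proneural factors, was over the 20-copy level in 9 of 10 IPs and in no AP. Its IP signals ran from 4.14 through 11.13 to 12.59, with the single low value in cell 72J, and its AP signals from 0.34 through 1.97 to 4.85. The groups overlapped through cell 72J alone. The difference of the means was 8.11 on the log2 scale and the fold at least 1.84. Afap1, an actin filament-associated protein, differed by 7.60, with 8 of 10 IPs and 2 of 17 APs over the 20-copy level, but it was also high in neuron 80K at 11.43, as was Lzts1 at 11.50. Gadd45g in neuron 80K was 3.90 and Hes6 8.77, both under the 20-copy level.

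Hes6 and Gadd45g are shown here with the stretch before their transcription start, since they head the IP side and proneural factors bind E-boxes. Each sequence is the 250 bases upstream of the start in RefSeq on GRCm38.p6, read on the gene's strand, and capitals mark the E-box letters CAGCTG, which read alike on both strands, or CAGATG and its reverse CATCTG. Sparc, the AP gene with the highest difference after Ttyh1, is set beside them.
Hes6, chr1:91414039-91414288, minus strand: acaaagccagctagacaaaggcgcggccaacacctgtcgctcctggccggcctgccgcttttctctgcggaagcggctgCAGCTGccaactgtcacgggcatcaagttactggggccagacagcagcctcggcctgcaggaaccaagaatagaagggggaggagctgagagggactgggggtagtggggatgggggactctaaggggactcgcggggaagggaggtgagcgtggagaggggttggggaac
Gadd45g, chr13:51846425-51846674, plus strand: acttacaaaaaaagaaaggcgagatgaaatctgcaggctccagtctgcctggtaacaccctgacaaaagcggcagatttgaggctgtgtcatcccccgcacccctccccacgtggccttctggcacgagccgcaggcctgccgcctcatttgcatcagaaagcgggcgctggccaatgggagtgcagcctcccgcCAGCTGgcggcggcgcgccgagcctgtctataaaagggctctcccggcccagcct
Sparc, chr11:55420081-55420330, minus strand: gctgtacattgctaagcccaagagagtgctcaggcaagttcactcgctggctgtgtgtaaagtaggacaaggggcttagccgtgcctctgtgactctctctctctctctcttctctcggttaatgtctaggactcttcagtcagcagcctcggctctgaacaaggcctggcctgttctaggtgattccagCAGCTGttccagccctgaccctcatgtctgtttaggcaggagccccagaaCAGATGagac
CAGCTG starts 171 bases before the start of Hes6, 55 before that of Gadd45g and 60 before that of Sparc, where CAGATG follows 10 bases before the start. CAGCTG is found in 13% of all 32851 upstream windows of this length in the table, and CAGATG or CATCTG in 14.4%. By gene, it is in 11 of the 44 genes (25%) at least 8-fold higher in IPs that the table holds, in 8 of 64 (12.5%) of those higher in APs and in 1220 of 8822 (13.8%) of all genes past the filter. CAGATG or CATCTG is in 4 of the 44 (9.09%), 5 of the 64 (7.81%) and 11.4% of all genes past the filter. These are letter matches only and no evidence of binding, and the same letters stand before genes of both sides of the comparison.

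**Figure D1:**
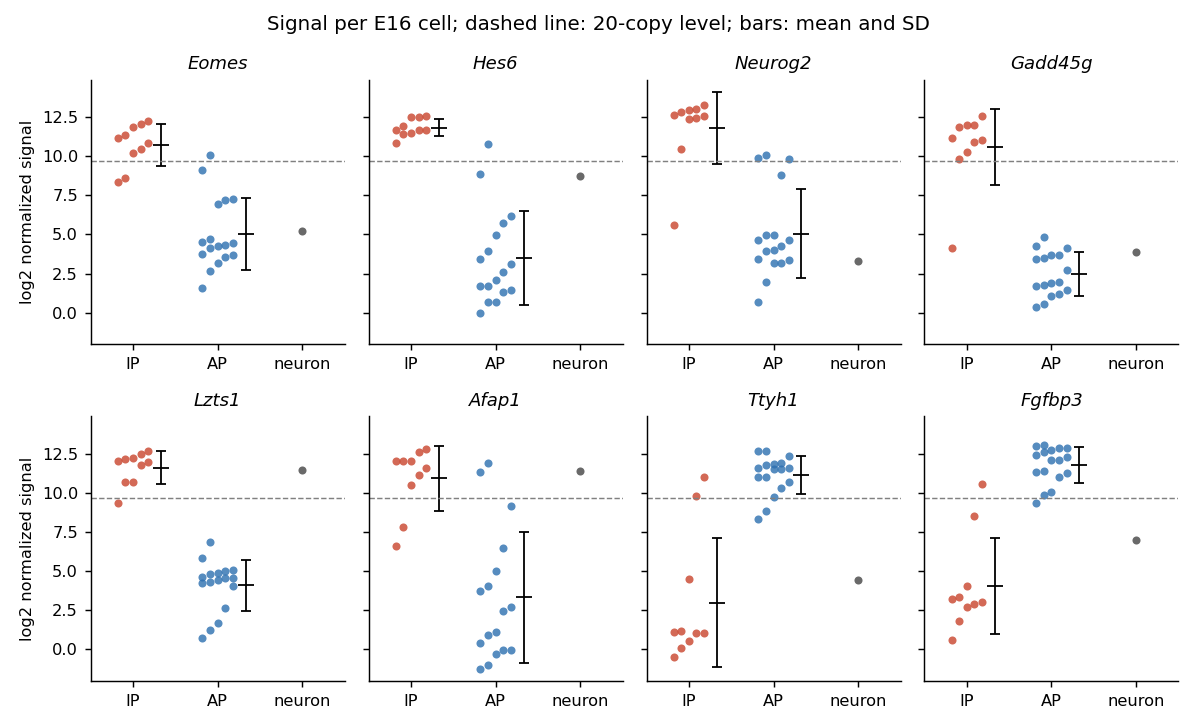
Log2 normalized signal of 8 genes in each E16 cell, with 10 IPs in red, 17 APs in blue and neuron 80K in grey; black bars are the mean and SD between cells and the dashed line is the 20-copy level of 9.72. Hes6 and Lzts1 show no overlap between IPs and APs, while Ttyh1 and Fgfbp3 are high in APs with 2 IPs and 1 IP over the line.

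The 4 genes taken as markers of the types, Hes6 above among them, differed between the groups, though not without exceptions. The types came from these same arrays, so this is no independent check of them. Eomes was over the 20-copy level in 8 of 10 IPs and in 1 of 17 APs, with IP signals from 8.37 through 11.02 to 12.30 and AP signals from 1.58 through 4.30 to 10.07. The 2 IPs under the level were 76C at 8.64 and 82H at 8.37, and the AP over it was 81L, which was also the AP over it in Mfng. Neurog2, the proneural factor of the dorsal cortex, was over the level in 9 IPs, ranging from 5.63 in 76J through a median of 12.62 to 13.28, and in 3 APs. Ttyh1, a membrane protein of radial glia, was over the level in 15 APs, from 8.35 through 11.57 to 12.73, and in 2 IPs, whose signals otherwise reached down to -0.49 around a median of 1.06. The difference of means was 5.71 for Eomes, 6.78 for Neurog2 and -8.18 for Ttyh1 on the log2 scale, with bounds of at least 1.99-fold, 4.21-fold and 2.47-fold.

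All 15 members of the list of IP commitment factors had the higher mean in IPs, beside 48.3% of all genes. The list's median difference was 3.94 against -0.05 over all genes. With the IP mean at or over the 20-copy level, 6 of them were at least 8-fold higher, beside 0.473% of all genes. Beside Hes6, Gadd45g, Lzts1, Neurog2 and Eomes, the sixth was Btg2, an antiproliferative gene of neurogenic progenitors, with 8 of 10 IPs and 3 of 17 APs over the 20-copy level and a difference of 4.63. Insm1, a zinc-finger factor of basal progenitors, was less selective: 9 of 10 IPs but also 10 of 17 APs were over the level. Rcor2, Scrt2, Nhlh1, Sstr2 and Neurod1 differed by 4.35, 3.87, 3.94, 3.77 and 3.24, and none of them was over the level in any AP, yet only 2 to 4 IPs were, so that both group means stayed under it. Neurog1, Neurod4 and Cdkn1c had low means in both groups, with 0, 1 and 1 IPs over the level.

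Neuronal genes followed the same direction. Of 24 list members, 22 had the higher mean in IPs, beside 48.3% of all genes, and the median difference was 1.79. With the IP mean at or over the 20-copy level, 3 were at least 8-fold higher, beside 0.473% of all genes. The 3 were Sox11 and Sox4, transcription factors that activate the pan-neuronal program, and Rnd2, a small GTPase of radial migration downstream of Neurog2. Sox4 was over the level in all 10 IPs and in 11 of 17 APs, with means of 12.38 (SD 0.80) and 9.04 (SD 3.74), at least 3.34-fold apart. Sox4 signals were thus high in most APs as well, and the group difference came with an AP range of -1.20 to 12.53. Sox11 differed by 3.45 and Rnd2 by 4.29.

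Several neuronal genes with wider gaps had IP means under the 20-copy level, with part of the IPs low. Elavl4, a neuronal RNA-binding protein, ran from 4.13 through 10.03 to 11.85 in IPs and from -1.92 through 1.18 to 9.51 in APs, with 7 IPs and no AP over the level. Neurod6, a bHLH factor of glutamatergic neurons, was over the level in 7 IPs and no AP, and Tubb3, the neuronal β-tubulin, in 5 IPs and no AP. Dcx, a microtubule protein of migrating neurons, was over it in 7 IPs and 3 APs. Other members ranged from common to unseen. Map2, a dendritic microtubule protein, was over the level in 8 IPs and 11 APs, Neurod2 in 5 IPs and no AP and Mapt, the tau protein, in 3 IPs and 1 AP, while Stmn2, Bcl11b and Cntn2 reached the level in no IP and no AP, and Snap25 and Tbr1 in 1 IP each. Gap43 went the other way, with a mean of 5.55 in IPs and 7.04 in APs.

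Among the remaining genes at the top of the IP side, Trp53i11, named as a p53-inducible gene, was over the 20-copy level in 9 IPs and 1 AP, and Kif21b, a neuronal kinesin, in 8 IPs and no AP. Tmem178 and Nsg2, a neuronal vesicle protein, differed by 6.49 and 4.70 and were each over the level in 7 IPs, with 2 APs and 1 AP. Cbfa2t2, a transcriptional corepressor of the ETO family, was over the level in all 10 IPs and in 5 of 17 APs, with means of 11.90 and 6.92, at least 4.08-fold apart. Mrpl35 and Mrpl27, which encode mitochondrial ribosomal proteins, and Cdk19, a Mediator kinase, completed the 15 widest differences among genes with an IP mean at or over the level, at 5.00, 4.90 and 4.67, each with 4 or 5 APs over the level as well. Nsg2 and Kif21b were high in neuron 80K, at 13.39 and 11.97. For Mrpl35, Cbfa2t2 and Cdk19 a further probe set of the gene past the filter had the opposite sign.

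**Figure D2:**
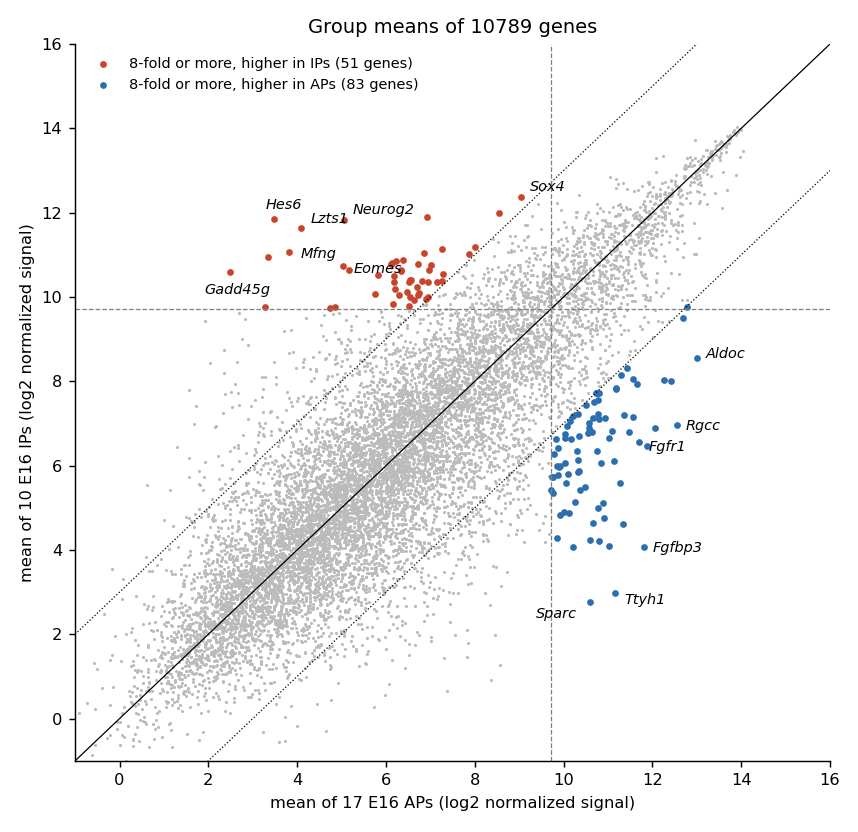
Mean log2 normalized signal of each of 10789 genes in 17 E16 APs (horizontal) and 10 E16 IPs (vertical); the solid line marks equal means, the dotted lines an 8-fold difference and the dashed lines the 20-copy level. Red points are the 51 genes counted as higher in IPs and blue points the 83 higher in APs, and most genes lie between the dotted lines.

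On the AP side no gene had every AP above every IP. Ttyh1 was followed by Sparc, a secreted matrix glycoprotein of radial glia and astrocytes, over the 20-copy level in 13 of 17 APs and in no IP. Its AP signals ran from 6.82 through 11.03 to 12.66 and its IP signals from -0.42 through 1.47 to 9.54, and the AP mean was at least 1.84-fold higher. Fgfbp3, a secreted protein that binds fibroblast growth factors, was over the level in 16 APs and 1 IP, with AP signals from 9.36 through 12.11 to 13.10, IP signals from 0.59 through 3.13 to 10.57, and means at least 4.00-fold apart. Pmp22, a membrane protein, was over the level in 13 APs and no IP, with IP signals no higher than 7.46. Most IPs were thus low in these genes, and the IP with the highest Sparc signal was 81O.

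The list of AP and radial glial genes had 19 of 20 members with the higher mean in APs and a median difference of -2.88. Slc1a3, Nes and Pdpn were lower in IPs by more than the 8-fold limit, but both means of each lay under the 20-copy level. With the AP mean at or over that level, 7 members were at least 8-fold higher, beside 0.769% of all genes. Beside Ttyh1 and Fgfbp3 these were Vcam1, an adhesion molecule of neural stem cells (-6.58), Ednrb, the endothelin receptor B (-6.15), Tnc, the matrix protein tenascin C (-5.40), Aldoc, a glycolytic aldolase of glia (-4.46), and Ddah1, which degrades methylated arginine (-3.18). Tnc, Aldoc and Ddah1 were over the 20-copy level in all 17 APs, and in 3, 3 and 6 IPs. Aldoc was at least 6.05-fold higher in APs, from 11.31 through 13.14 to 13.56 in APs and 4.37 through 9.15 to 12.67 in IPs.

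The transcription factors that define the cortical progenitor state differed less. Pax6 was over the 20-copy level in 17 APs and 7 IPs, with a median of 12.02 in APs and 11.35 in IPs, and Sox2 likewise in 17 APs and 7 IPs, with medians of 11.93 and 10.89. The other 3 IPs lay under the level in each gene, and the SD between IPs was 3.37 for Pax6 and 3.55 for Sox2 against 0.61 between APs for both. Fabp7, the radial glial lipid-binding protein, was over the level in every one of the 27 cells, with means of 12.89 (SD 0.74) in IPs and 13.88 (SD 0.28) in APs, and Vim, the intermediate filament protein, in 9 IPs and 17 APs. Prom1 alone in this list had the higher mean in IPs, at 10.33 (SD 2.94) against 9.62 (SD 3.27), and Hopx reached the level in 1 AP.

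Further genes among the 15 widest differences on the AP side, with an AP mean at or over the 20-copy level, were Fkbp9, Slc9a3r1, a scaffold protein of apical membranes, Lpcat1, Tubb2a, Itgb8, an integrin subunit of radial glia, Ccdc80, Psph, the last enzyme of serine synthesis, Slc15a2, a peptide transporter, and Rgcc, a regulator of the cell cycle. Their differences ran from -6.93 in Fkbp9 to -5.58 in Rgcc, and a further probe set of Lpcat1 past the filter had the opposite sign. Tubb2a and Lpcat1 were also high in neuron 80K, at 12.26 and 10.62, while the others of these genes were under the 20-copy level there. Rgcc was over the 20-copy level in all 17 APs, from 10.70 through 12.74 to 13.31, and in 4 IPs, and its means were at least 3.96-fold apart. Among astroglial genes 10 of 12 had the higher mean in APs, with a median difference of -2.98, beside 48.3% of all genes higher in IPs. Sparc, Clu and Mt1 were at least 8-fold higher with the AP mean at or over the level, beside 0.769% of all genes. Sparcl1, Aldh1l1 and Apoe were also lower in IPs by more than the 8-fold limit, but both means of each lay under the level. The metallothioneins Mt1 and Mt2 were over the level in all 17 APs and in 4 and 5 IPs. Gfap, the filament protein of mature astrocytes, was over it in no cell of either group, and Slc1a2, the main astrocyte glutamate transporter, in 1 IP and 1 AP.

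**Figure D3:**
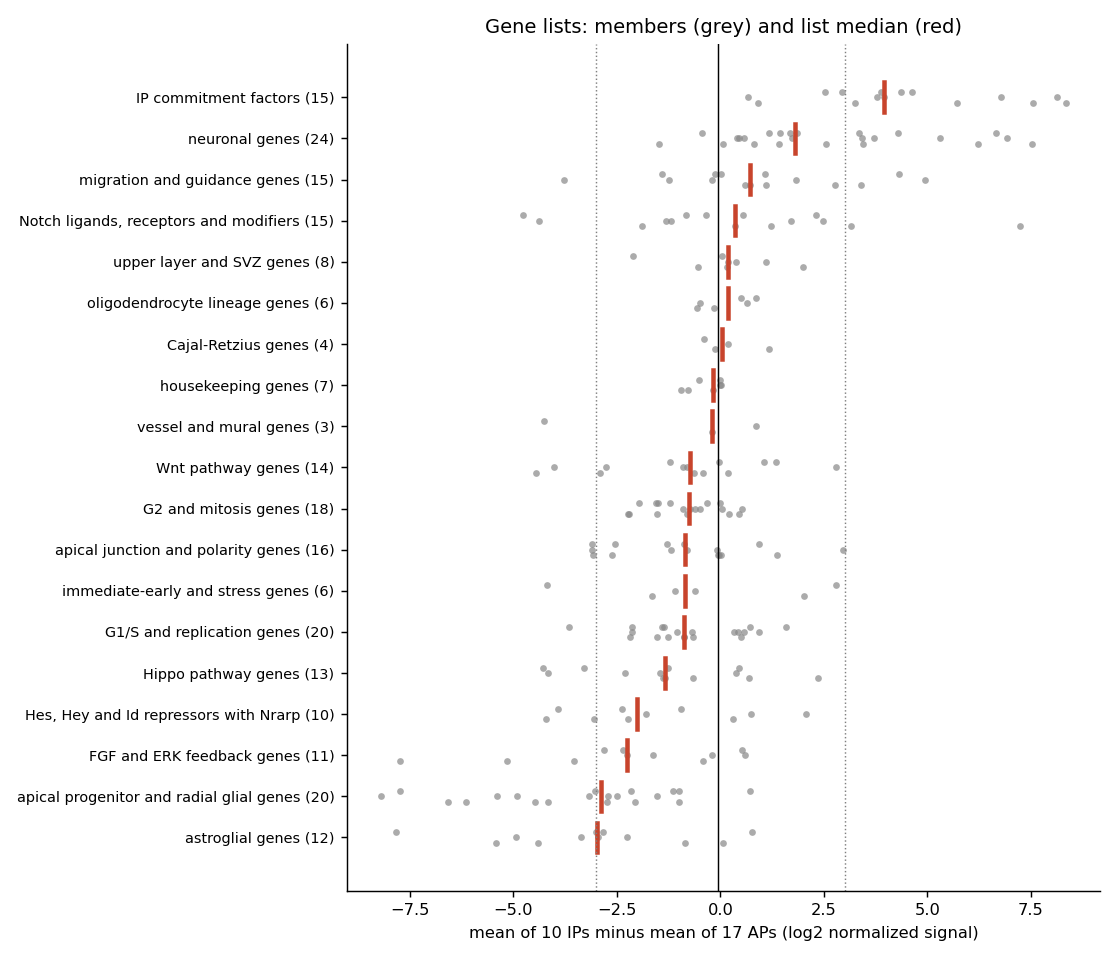
Difference of the mean log2 normalized signal, 10 IPs minus 17 APs, for the members of each gene list with at least 3 genes past the filter (grey points, number in brackets); red bars are list medians, the black line is the median of all 10789 genes at -0.05 and the dotted lines mark 8-fold. IP commitment factors stand highest with a median of 3.94 and astroglial genes lowest with -2.98.

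Notch pathway genes went in both directions. Of 15 ligands, receptors and modifiers past the filter, 8 had the higher mean in IPs and 7 in APs, with a median of 0.36 that turned to -0.41 when only the 27 arrays were normalized together. Mfng, the fringe glycosyltransferase that tunes the response of Notch to its ligands, was over the 20-copy level in 8 IPs and 1 AP. Its IP signals ran from 9.04 through 11.38 to 12.10 and its AP signals from 2.12 through 3.51 to 10.17, a single AP reaching the IP range, and the means were at least 2.49-fold apart. The ligand Dll1 was over the level in 5 IPs and 2 APs, with medians of 9.23 and 4.84, and Dll3, a divergent ligand that acts within the cell, differed by 2.47 with no cell of either group over the level. Mib1, the ubiquitin ligase needed for ligand endocytosis, was over the level in 2 IPs and 1 AP.

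The receptors did not share one direction. Notch2 was over the 20-copy level in 15 APs and 4 IPs, with AP signals from 8.73 through 10.79 to 12.01 and IP signals from 1.06 through 6.03 to 11.20, while a second probe set of Notch2 had the opposite sign. Notch3 was over the level in 11 APs and 1 IP, and both means lay under it, at 9.58 and 4.82. Notch1 was over the level in 7 IPs and 11 APs, with means of 10.71 (SD 2.84) and 10.35 (SD 1.86). The transcriptional effector Rbpj was over the level in 6 IPs and 13 APs, with medians of 10.53 and 10.76.

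Of the 10 Hes, Hey and Id repressors with Nrarp, which are targets of Notch or BMP signalling or their relatives, 7 had the higher mean in APs. For comparison, 48.3% of all genes had the higher mean in IPs. The list's median difference was -2.01, and only Id4 was at least 8-fold higher with the AP mean at or over the 20-copy level. Id4 was over the 20-copy level in 16 APs and 5 IPs. Its AP signals ran from 4.33 through 12.80 to 13.45 and its IP signals from -0.22 through 8.94 to 12.78, at least 2.79-fold apart in the means. Hey1 was over the level in 10 APs and 2 IPs and Hes1 in 6 APs and 1 IP. Both were lower in IPs by more than the 8-fold limit of 3, but their AP means lay under the level. Hes5, a direct Notch target, was over it in 7 of 17 APs and 3 of 10 IPs, and the SD between cells was 4.06 and 4.70, wider than the difference of -1.79. Id2 went the other way, by 2.06, with 3 IPs and 4 APs over the level.

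**Figure D4:**
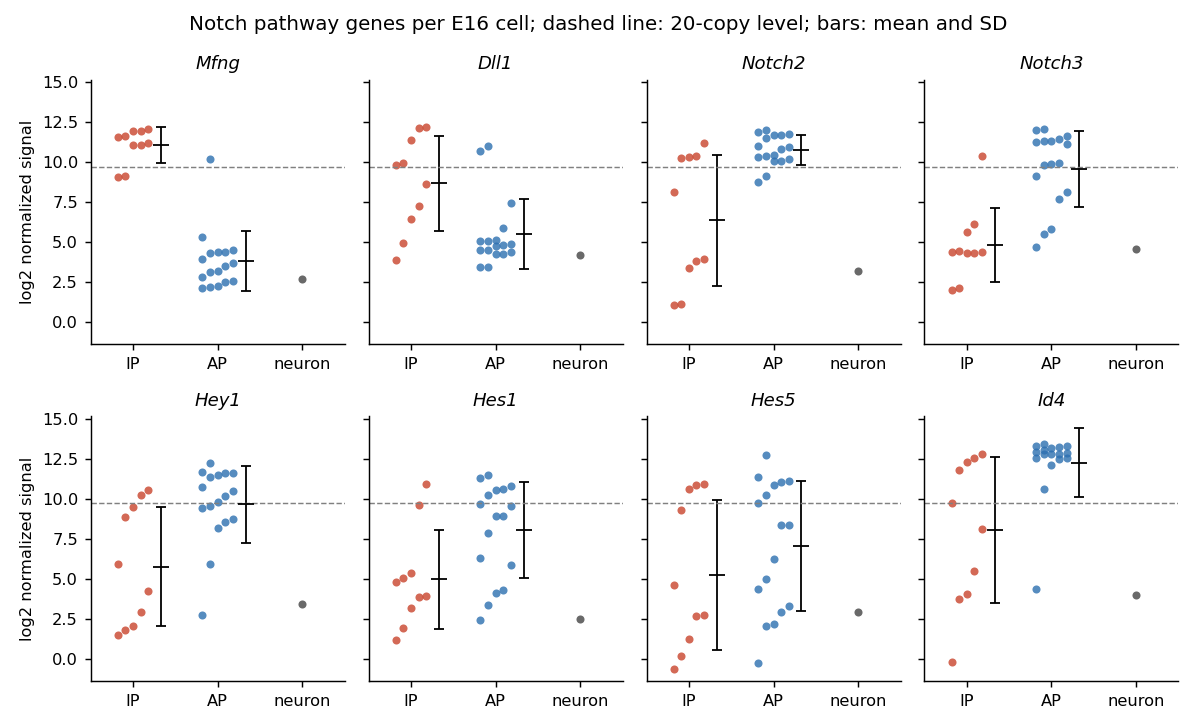
Log2 normalized signal of 8 Notch pathway genes in each E16 cell, with 10 IPs in red, 17 APs in blue and neuron 80K in grey; black bars are the mean and SD between cells and the dashed line is the 20-copy level. Mfng lies high in IPs and Notch2 and Id4 in APs. Hes1 and Hes5 range widely in both groups, with the higher mean in APs.

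Growth factor and adhesion genes mostly had the higher mean in APs, beside 48.3% of all genes with the higher mean in IPs. Of 11 genes of FGF signalling and its ERK feedback, 9 had the higher mean in APs, with a median of -2.26. At least 8-fold higher were 3 of them, beside 0.769% of all genes. Beside Fgfbp3 these were the receptor Fgfr1, over the 20-copy level in 17 APs and 6 IPs, and Etv5, an ETS factor induced by FGF, over it in 13 APs and 5 IPs. The feedback gene Dusp6 was over the level in no cell of either group. Of 13 Hippo pathway genes 9 had the higher mean in APs, with a median of -1.34. Ccn1, a secreted target of the YAP coactivator, was over the level in 13 APs and no IP, and its AP mean of 9.72 lay at the level itself, while the coactivator genes Yap1 and Wwtr1 were over it in 10 and 14 APs and in 4 and 5 IPs.

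Of 14 Wnt pathway genes past the filter 10 had the higher mean in APs, with a median of -0.73. Fzd8, a Frizzled receptor, was the only one at least 8-fold apart with its higher mean at or over the 20-copy level. It was over the level in 13 APs and 4 IPs. Dkk3 was also lower in IPs by more than the 8-fold limit, but both its means lay under the level. Among apical junction and polarity genes 12 of 16 had the higher mean in APs, with a median of -0.85. Cdh2, the N-cadherin of the apical junction, was over the level in 15 APs and 5 IPs, with means of 11.44 (SD 1.12) and 8.32 (SD 2.53), at least 2.84-fold apart. Its partner gene Ctnnb1, for β-catenin, was equal in both groups, at 13.61 (SD 0.10) in APs and 13.63 (SD 0.24) in IPs. Pard3, a polarity scaffold, went the other way by 2.96, with 3 IPs and no AP over the level, while a second probe set past the filter had the opposite sign.

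Genes of migration and guidance were split. The higher mean was in IPs for 10 of 15, beside 48.3% of all genes. The median was 0.71, or -0.04 by medians over cells. Plxna2, a semaphorin receptor subunit, was over the 20-copy level in 7 IPs and 1 AP, and Dcc, the netrin receptor, in 3 IPs and no AP, whereas Dab1, the adaptor of Reelin signalling, was over it in 2 IPs and 8 APs. Of the upper layer and SVZ genes, 10 were listed and 8 passed the filter, with a median difference of 0.17. The extremes were Cux1 at 2.01 and Rorb at -2.11, and further Cux1 probe sets past the filter went both ways. Pou3f3 and Lhx2 were over the level in all 27 cells, with differences of 0.16 and 0.18, and Cux2, a factor of upper layer neurons and the SVZ, had means of 8.76 (SD 0.66) in IPs and 8.38 (SD 0.66) in APs.

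Cell cycle genes overlapped widely between the groups. Of 20 genes of the G1/S transition and replication 13 had the higher mean in APs, with a median of -0.88. Over all 10789 genes, 48.3% had the higher mean in IPs. Only Mcm4, a subunit of the replicative helicase, was at least 8-fold higher in APs, over the 20-copy level in 13 APs and 3 IPs. Of 18 genes of G2 and mitosis 14 had the higher mean in APs, with a median of -0.76 (0.03 when the groups were summarized by medians over cells) and none at least 8-fold apart in either direction. Mki67, the proliferation antigen, had the lowest difference of these at -2.22, over the level in 15 APs and 7 IPs. The D cyclins Ccnd1 and Ccnd2 had slightly higher means in IPs, by 1.59 and 0.49, with SDs of 3.81 and 1.68 between IPs.

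The IPs differed among themselves in how many members of each list they carried over the 20-copy level. Of the 15 IP commitment factors they had 5 (82H) to 11 (71E), against 0 to 2 in APs and 3 in neuron 80K. Of the 20 AP genes they had 2 (72J and 76J) to 15 (81O), against 11 to 18 in APs and 1 in neuron 80K, so that 81O, 71E and 75A, with 15, 13 and 11, fell within the AP range. Of the 24 neuronal genes they had 4 (82H) to 15 (76J), against 1 to 6 in APs and 17 in neuron 80K. Every IP was above every AP in the mean of the IP commitment list, while the mean of the neuronal list was above every AP in 8 of 10 IPs.

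The IPs fell into cells with many and cells with few transcripts of G2 and mitosis. Of the 18 genes, 71E, 72J, 75A and 76J had 2, 2, 3 and 0 over the 20-copy level, and the other IPs had 15 to 18. Among APs the count ran from 0 to 17, with a median of 15, and neuron 80K had 0. Over the 10 IPs the mean of the neuronal list had a correlation of 0.68 with that of the IP commitment list (Spearman 0.72; 0.71 without the 2 cells farthest out), of -0.55 with that of the AP list and of -0.53 with that of the G2 and mitosis list. Without the 2 farthest cells the last of these were -0.42 and -0.35. Over the 17 APs the same correlations were 0.27, 0.32 and -0.03. These describe cells that share an array normalization and differ in total signal, and are given without a test.

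**Figure D5:**
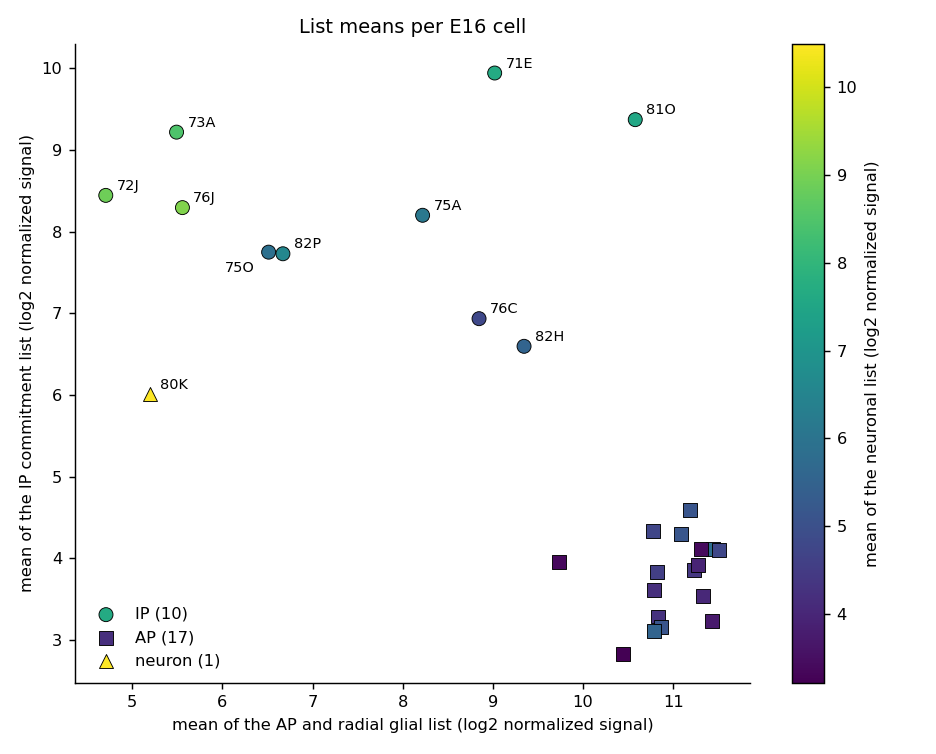
Mean log2 normalized signal of 20 AP and radial glial genes (horizontal) and of 15 IP commitment factors (vertical) in each E16 cell, coloured by the mean of 24 neuronal genes; circles are 10 IPs, squares 17 APs and the triangle neuron 80K. The APs form 1 group at the lower right, while the IPs spread from 72J with an AP list mean of 4.71 to 81O with 10.58.

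The same genes were read in the other APs of the series, which were labelled as such: 3 E12 APs, 3 APs from neurospheres cultured for 3 days from E11 tissue, and 4 E14 APs that overexpressed the Notch intracellular domain with the cell cycle inhibitor p18. Gadd45g and Lzts1 were over the 20-copy level in none of these cells, and Ttyh1 was over it in 3, 2 and 4 of them. Mfng was over the level in none of them either. Hes6, however, was over it in 1 of the E12 APs, with a median of 9.64, and in 1 of the neurosphere APs, with a median of 8.93, and Eomes and Neurog2 each in 1 of the E12 APs. In Sparc, Fgfbp3 and Vcam1 all 4 of the overexpressing APs were over the level, against 1, 2 and 1 of the E12 APs and 0, 1 and 1 of the neurosphere APs. Tnc was over it in no E12 AP and in all of the neurosphere and overexpressing APs. Afap1, an IP gene at E16, was over the level in 3 of the 4 overexpressing APs. With 3 or 4 cells in a group these counts are listed as found.

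Other cell types were nearly unseen in the 27 cells. Of the 10 interneuron lineage genes, none passed the filter. Of 7 microglial genes 2 passed, Csf1r and Tyrobp, with a median difference of 1.76, and AP 81E alone was over the 20-copy level in both, while the other 5 did not pass. The summed signal of these 2 genes reached 958 in IPs and 12959 in APs from lows of 18 and 18.9, the top AP value being that of 81E. Of 7 vessel and mural genes 3 passed, and only Pdgfrb was over the level, in 3 APs and no IP, and of 6 mesenchymal genes only Col1a2 passed, over the level in 2 APs. Of 6 blood genes 2 passed, with no cell over the level, and the oligodendrocyte lineage genes Olig1 and Olig2 were over it in 1 AP and in 1 IP and 2 APs. The part of such transcripts in the differences above was not tested.

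Of 7 housekeeping genes 6 had the lower mean in IPs, with a median difference of -0.18. Pabpn1 differed by -0.96, with 8 IPs and 17 APs over the 20-copy level, Tbp by -0.77 and Aldoa by -0.52, and the others by less. Further Pabpn1 probe sets past the filter went both ways, at 0.85, 0.19 and -1.10. Gapdh was 13.34 (SD 0.19) in IPs and 13.52 (SD 0.14) in APs, Actb 12.42 (SD 0.71) and 12.43 (SD 0.49), and Rplp0 13.89 (SD 0.09) and 13.87 (SD 0.15). Before normalization the trimmed mean signal of the arrays was 47.5 to 218 in IPs and 69.4 to 236 in APs, and IPs 75A and 75O had the lowest values of the 27. Without these 2 cells, a setting chosen after seeing the data, 79 genes were at least 8-fold higher in IPs in place of 51, and 79 in APs in place of 83. The numbers in the cell names, whose meaning is not given, ran from 71 to 82 in IPs and from 75 to 82 in APs. The groups were spread unevenly over them, so that group and number are partly confounded. Numbers 71, 72 and 73 held only IPs, 77 and 78 held only APs, and most APs but only IP 81O carried number 81. Averaged within the numbers that held both groups, 77 genes were at least 8-fold higher in IPs and 188 in APs.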

How the data were processed

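Single-cell cDNA of 68 cells was hybridized to Affymetrix mouse genome arrays, and the intensities used here were deposited by the authors as MAS5 signals of 45101 probe sets, 1 array per cell; version and genome build are not given in the sources used here. MAS5 scores each array alone, so a weak probe set varies strongly on a log scale. The number of arrays limits the precision, and no depth applies. The deposited signals were quantile normalized over the 68 arrays (the study's methods name quantile normalization, and its arrays included E14 cells not used here) and log2 transformed. The 20-copy level was the median normalized signal of the 3′ phe probe set, 842; the 3′ lys and dap probe sets had medians of 8740 and 3946, and the 3′ thr probe set, at 5 copies, 3.77. As deposited, the 5′ phe and dap probe sets had medians of 5.36 and 3.83 against 675 and 3267 at the 3′ end. The lys spike had no such gap, with 7390 at the 5′ and 7498 at the 3′ end.

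Gene names came from GEO's platform annotation: 34958 probe sets had 1 symbol, 932 had several and 9211 were unnamed here. Probe sets at or over the 20-copy level in at least 1 of the 68 cells were kept (20721), and for each gene the probe set of highest mean over the 68 arrays was used, giving 10789 genes. IPs and APs were compared by the difference of their mean log2 signals and by the number of cells over the 20-copy level. A gene was counted where the difference was at least 3 (8-fold) and the higher mean was at or over the 20-copy level. No test was made, because the cells are single and the types derive from the same arrays. No pair of the 27 arrays was identical, and no column belonged to another sample. The text names the 4 markers and the 15 widest differences in each direction among genes whose higher mean was at or over the 20-copy level. List members at least 8-fold apart are named too, with the extremes of most lists. So are the 5 widest gaps in the share of cells over the level in each direction, and other list members as examples. The cells, the 23 gene lists and the rules were chosen with earlier results of these data known. Of 89 further probe sets of 81 named genes, 74 had the sign of the one used. Upstream sequences came from RefSeq on GRCm38.p6, which held 44 of the 51 and 64 of the 83 counted genes. The counting step was tested on simulated data. Alternatives were the deposited signals, quantile normalization of the 27 arrays, scaling to the lys spike, a floor at the 20-copy level, medians over cells, means over probe sets, other filters, an exchange of 2 cells, averages within the numbers of the cell names, and leaving out 2 cells of low signal. Python 3.11.15, numpy 2.4.6, pandas 2.3.3, scipy 1.17.1 and matplotlib 3.10.9 were used.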

Additional observations from a re-analysis of the deposited data

Results flagged for a closer look

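By Dixon's 95% criterion, the highest or lowest of the 10 IPs stood apart from the other 9 in 13 of the values tested (12.6%). This criterion finds about 1 group in 20 by chance. All 13 were signals of single genes. Cell 75A was low in 4 of them, with log2 signals of 0.97 in Tmem178, 1.37 in Mrpl35, 8.21 in Sox11 and 3.29 in Plxna2, and this cell also had the lowest deposited signal of the 27. Cell 76J was low in Neurog2 at 5.63, against a median of 12.62, and in Prom1 at 2.27. Cell 71E was low in Pabpn1 at 4.70 and high in Neurod4 at 10.16. Cell 72J was low in Gadd45g at 4.14, 76C in Trp53i11 at 7.56 and 75O in Elavl4 at 4.13. Cell 81O was high in Notch3 at 10.36 and 82P in Ebf3 at 8.25.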

How the results depend on the processing

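More genes were counted on the AP side than on the IP side in every setting except without IPs 75A and 75O, where the sides were equal, and with the floor. The 51 genes higher in IPs and 83 higher in APs became 187 and 235 with medians over cells, 28 and 42 with the mean over all probe sets of a gene, and 77 and 188 within the numbers of the cell names. With each signal under the 20-copy level set to it, the counts were 0 and 0. Without IPs 75A and 75O each side had 79 genes, which moved its share of all counted genes from 38.1% to 50%; 47 of the 51 genes were among them. With 76C and 78C exchanged, 2 names that look alike in the tree, 41 and 75 genes were counted, and 29 and 62 of the original genes were among them. Floored at the 20-copy level, the median differences were 0.776 for IP commitment factors, -0.98 for AP genes and 0.38 for neuronal genes. With genes over the level in at least 5 of the 27 cells, fewer genes stayed and the medians were 6.78 for IP commitment factors and 3.43 for neuronal genes. Quantile normalization over the 27 arrays gave 3.08 for neuronal genes, and averages within the numbers of the cell names gave -1.51 for AP genes. Of 865 values of 81 named genes under these settings, 54 moved by more than the SD between cells, 51 of them towards 0, and 10 had the other sign; of 235 medians of 22 lists, 17 moved and 21 had the other sign, in the lists of Notch ligands and receptors, G2 and mitosis, migration, upper layer, immediate-early, oligodendrocyte, Cajal-Retzius, microglia, blood, vessel and mesenchymal genes. No paired analysis was possible because the labels carry no replicate numbers, and the meaning of the numbers in the cell names, within which the averages above were taken, is not given; 30 of the 51 and 46 of the 83 genes were among those counted within them. The limits are that each group is a set of single cells of unknown litters, and that signals under the 20-copy level scatter widely.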

Other observations

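Some cells carried markers of the other group. AP 81L was over the 20-copy level in both Eomes (10.07) and Mfng (10.17), with Neurog2 at 3.19. APs 81E, 81i and 81J were over it in Neurog2, at 10.11, 9.81 and 9.90, with Eomes under it at 6.97, 4.52 and 9.14. AP 81H was over it in Hes6, at 10.82. IP 81O was over it in Ttyh1 (11.05) and Vcam1 (11.95), beside Eomes at 11.37 and Hes6 at 11.92. Its Fgfbp3 signal was low, at 1.81. Its Sparc signal of 9.54 was the highest of this gene among IPs but under the level.

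Immediate-early genes, chosen as a sign of handling, were split. Of 6 that passed the filter, 4 had the higher mean in APs, with a median difference of -0.86, or 0.34 by medians over cells. Jun was over the 20-copy level in 13 APs and 3 IPs, with a difference of -4.19, Fos in 3 APs and no IP, and Dusp1 in 6 IPs and 5 APs.

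Genes just inside the 8-fold limit were Atat1 and Sdc3 in IPs, each with a difference of 3.04, and Sptbn1 in APs at -3.01. Just outside it were Zfp532 at 2.98 and Rnf180 at -2.98.

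Sex-linked genes, chosen after their values were seen, were counted by cell. Xist, expressed in female cells, was over the 20-copy level in 1 IP and 1 AP, and at least 1 of the Y-linked genes Eif2s3y, Kdm5d and Uty in 4 IPs and 5 APs. No cell had both, and 5 IPs and 11 APs had neither.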
